A study of Danio rerio with 60 samples.

Results

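The genes described here are the heat shock proteins and their cochaperones in zebrafish larvae: the HSP70, HSP90, HSP110, mitochondrial HSP60 and HSP10 and small HSP families, the CCT chaperonin, the DNAJ and BAG cochaperones and the heat shock factors (HSF). Members were chosen by the start of their symbol in a reference name table, which gave 108 genes. All 108 were among the 27281 genes of the raloxifene table, and 106 were among the 27488 genes of the resorcinol table. By family, 52 were DNAJ genes, 16 HSP70, 10 small HSP, 8 CCT, 7 BAG, 5 HSF, 4 HSP110, 4 HSP90 and 2 mitochondrial HSP60 and HSP10 genes. The letters of the rule also took in HSF2BP, named as a binding partner of HSF2, and hspb11. Gene expression was measured by RNA sequencing of pools of 20 whole larvae of the AB/Tub background, exposed between 72 and 120 hours after fertilization. Of the 2 compounds, raloxifene is a drug that binds estrogen receptors and resorcinol a small phenol. Larvae received raloxifene at doses of 0.00201, 0.0201, 0.201, 2.01 and 20.1 µM, with 0.5% carrier alone as control, or resorcinol at 0.0405, 0.405, 4.05, 40.5 and 405 µM, with 1% carrier alone as control. Each of the 12 groups held 5 pools, and which carrier was used is not stated. The titles of the dosed resorcinol pools carry the short name of raloxifene, so these pools were grouped by their description.

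Chaperones help proteins reach and keep their folded shape. HSP70 proteins bind and release unfolded segments in a cycle driven by ATP, DNAJ proteins bring them their clients and stimulate that cycle, and BAG proteins and HSP110 proteins help release the nucleotide. HSP90 matures kinases and steroid receptors, small HSPs hold unfolding proteins without ATP, CCT folds actin and tubulin inside a closed chamber, and HSF1 switches on the inducible genes when unfolded protein builds up, as after heat.

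Values are normalized counts, that is, reads per gene divided by a factor for each library. They are not corrected for transcript length, so levels were compared between groups of 1 gene and not between genes. The raloxifene libraries held 7.44 to 10.98 M reads and the resorcinol libraries 7.78 to 12.1 M, apart from 405 µM replicate 1 at 30.7 M. Members held between 0.736% and 1.21% of the reads of a raloxifene library, and between 0.724% and 1.23% of those of a resorcinol library. Of the members, 96 in the raloxifene table and 97 in the resorcinol table reached a normalized count of 10 in at least 5 libraries and were tested. Pools with the same replicate number deviated together, so a fit with that number as a block is given beside the fit without it. The labels do not say whether pools came from separate clutches, and p-values measure only the spread between these pools. By the 30 genes lower at 405 µM with the block, 2 resorcinol pools stood apart from their groups: 40.5 µM replicate 3 at a median log2 difference of -0.15 from its control, and 4.05 µM replicate 3 at -0.74.

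At 20.1 µM raloxifene, no member was called without the block, and HSPB1 and hsp70.3 were called higher with it. Without the block, 0 of 96 members had an adjusted p under 0.05 (limma with Benjamini-Hochberg adjustment), against 0.0936% of all 19241 tested genes. In the same fit 8 members, or 8.33%, had an unadjusted p under 0.05, all higher. Of all genes, 2.32% had such a p in either direction, 1.61% higher and 0.707% lower. Without the block, 0 members were called by edgeR, with 6 at an unadjusted p under 0.05, or by DESeq2, with 8. The share of all genes at such a p is given for limma only. The edgeR and DESeq2 counts at such a p, here and below, therefore cannot be set against a background. With the replicate number as a block, limma called 2 of 96 members, or 2.08%, both higher. Of all genes it called 1.26% in either direction and 0.873% higher. With the block edgeR called 0 members, with 14 at an unadjusted p under 0.05. In limma an unadjusted p under 0.05 with the block was reached by 16 members, or 16.7%, against 12.3% of all genes. All 16 were higher, against 6.74% of all genes higher and 5.54% lower. In no member did the 5 pools at 20.1 µM all lie above the 5 control pools, against 0.385% of all genes, or all below them, against 0.177%. The median log2 change was 0.05 over the 96 members and -0.01 over all tested genes, and 60 members lay above 0, or 62.5% against 47.5% of all genes. The members' median was 0.10 without control replicate 4, 0.09 without the 20.1 µM pool of replicate 1 and 0.08 without that of replicate 2. Many of these signs rested on small changes: 54 of the 96 members changed sign under at least 1 alternative fit, and 7 did so under a fit that left out no pool.

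Family medians are given as a description, with no test between families. The median log2 change at 20.1 µM was 0.36 for the 8 tested small HSP genes, 0.24 for HSPD1 and HSPE1, 0.19 for the 14 tested HSP70 genes and 0.18 for the 4 HSP90 genes. It was 0.08 for the 4 HSP110 genes, 0.03 for the 8 CCT genes, 0.02 for the 7 BAG genes, 0.00 for the 47 tested DNAJ genes and -0.06 for the 2 tested HSF genes. The HSP70 median moved when 1 pool was left out without its same-numbered partner. It was 0.02 without the 20.1 µM pool of replicate 4 and 0.43 without the control pool of replicate 4. With the block and each replicate number left out whole, it ran between 0.12 and 0.26. The HSP90 median was 0.10 without the 20.1 µM pool of replicate 4, and between 0.16 and 0.23 with whole numbers left out under the block. When 1 pool was left out at a time, the CCT median ran between -0.03 and 0.08, the BAG median between -0.08 and 0.07, the DNAJ median between -0.03 and 0.07 and the HSF median between -0.18 and 0.05, so each of these took either sign. With whole numbers left out under the block, the CCT median ran between 0.01 and 0.04 and the HSF median between -0.12 and -0.02. In those fits the BAG median, -0.06 to 0.03, and the DNAJ median, -0.02 to 0.01, still took either sign. In these pools of whole larvae, a change in the number of cells of a type and a change in RNA per cell cannot be told apart.

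**Figure D1:**
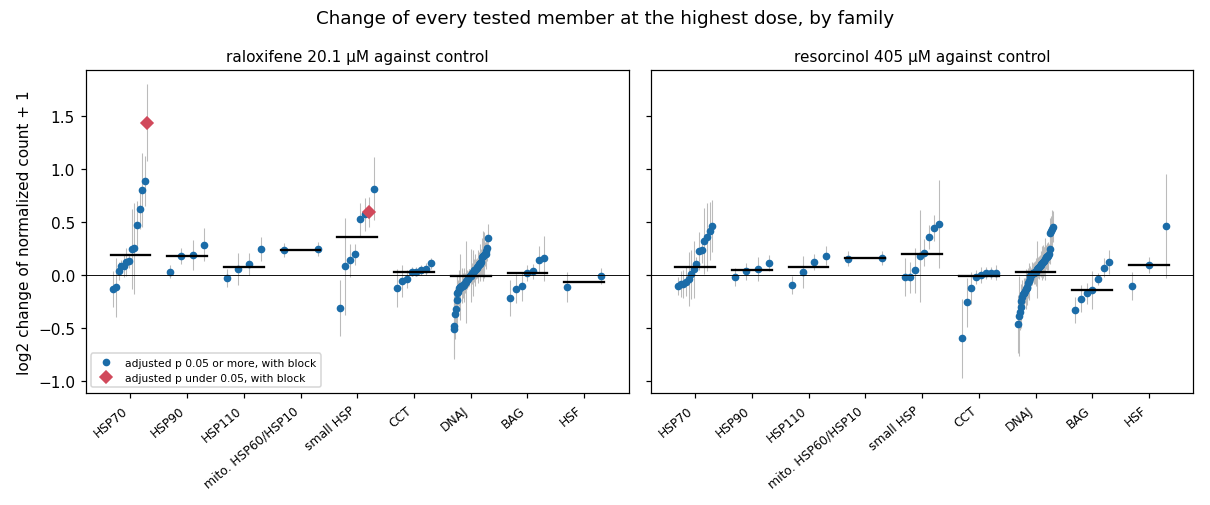
Each point is 1 tested member and its vertical line 1 standard error from the block fit; the y axis is the log2 change of the normalized count + 1 at 20.1 µM raloxifene (left) and 405 µM resorcinol (right) against the control, black bars are family medians and red diamonds are members called with the block. HSPB1 and hsp70.3 are the only diamonds, and the small HSP median is 0.36 on the left and 0.20 on the right.

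The small HSPs held HSPB1, the gene with the smallest adjusted p among members at 20.1 µM with the block. HSPB1, which binds unfolding proteins and actin filaments, had 123, 134, 149.9, 153 and 152 normalized counts in the 20.1 µM pools of replicates 1 to 5, against 51.0, 114, 92.3, 135 and 98.5 in the control pools. Only control replicate 4 reached into the 20.1 µM range, where the lowest pool was replicate 1, and all 5 same-numbered pairs were higher at 20.1 µM. HSPB1 averaged 142 ± 13.4 at 20.1 µM and 98.1 ± 31.0 in controls (SD, n = 5 each), a log2 change of 0.60 (SE 0.14 with the block). Its limma adjusted p was 0.0273 with the block and 1 without it, and edgeR with the block gave 0.0533. The log2 change was 0.38 without control replicate 1. With the block and each replicate number left out in turn, the call held only without number 2, and the adjusted p of HSPB1 ran between 0.0288 and 0.159.

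hspb6, a small HSP abundant in muscle of mammals, had 306, 661, 389.6, 534 and 462 normalized counts at 20.1 µM, against 266, 373, 252, 503 and 210.3 in controls. All 5 pairs were higher at 20.1 µM, while the ranges of both groups overlapped widely. The log2 change was 0.57 (SE 0.15 with the block), with a limma adjusted p of 0.0587 with the block. hspb9l averaged 526 ± 132 at 20.1 µM and 375 ± 129 in controls (SD, n = 5 each), a log2 change of 0.53 with a limma adjusted p of 0.0972 with the block. Without replicate number 1, hspb6 and hspb9l were called with the block, at limma adjusted p of 0.0119 and 0.0263. hspb9 averaged 28.0 ± 12.2 at 20.1 µM and 15.4 ± 7.60 in controls (SD, n = 5 each), a log2 change of 0.81 with a limma adjusted p of 0.222 with the block. HSPB3 and HSPB8 stayed below the level minimum, with at most 4.55 and 13.8 normalized counts in a raloxifene library.

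Among HSP70 genes, those named as inducible were measured at low counts. hsp70.3 had 41.0, 30.2, 19.2, 42.3 and 34.4 normalized counts in the 20.1 µM pools, against 7.09, 7.74, 9.92, 24.4 and 13.3 in the control pools. All 5 pairs were higher at 20.1 µM, and the groups overlapped only because control replicate 4 lay above the 20.1 µM pool of replicate 3. The log2 change was 1.43 (SE 0.36 with the block), the largest among members, with a limma adjusted p of 0.0396 with the block and 0.896 without it. edgeR with the block gave an adjusted p of 0.0657. With each replicate number left out in turn, the limma call with the block held only without number 4, and the adjusted p ran between 0.0389 and 0.202. hsp70.1 and hsp70.3 lie in a row with hsp70.2 between them in the RefSeq gene order for GRCz12tu. No member carries the symbol hsp70.2, so that gene may be missing here or stand under another name. Sequences were not compared, and how reads were divided between neighbouring copies was not tested.

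The other genes named as inducible were not called. hsp70.1 had 30.7, 19.0, 22.7, 30.7 and 29.7 normalized counts at 20.1 µM, against 2.83, 26.5, 23.8, 21.9 and 14.2 in controls, and its limma adjusted p was 0.338 with the block. Control replicate 1 lay far below the other control pools, which overlapped the 20.1 µM pools. hsp70l, a heat-inducible gene of larval fish, averaged 77.4 ± 9.55 at 20.1 µM and 56.0 ± 9.73 in controls (SD, n = 5 each), higher in 5 of 5 pairs, with a log2 change of 0.47 and a limma adjusted p of 0.410 with the block. hspa1b averaged 13.8 ± 2.27 at 20.1 µM and 15.2 ± 3.88 in controls, a log2 change of -0.11. Summed over hsp70.1, hsp70.3, hsp70l and hspa1b, the pools of replicates 1 to 5 had 166, 139, 134, 176 and 141 normalized counts at 20.1 µM, against 72.3, 111, 109, 131 and 84.3 in controls. The sum does not depend on how the counted reads were split among these genes, but it holds no gene under the symbol hsp70.2. It would miss reads that matched several copies and were left uncounted or counted elsewhere. How such reads were handled is not stated. On this sum every 20.1 µM pool lay above every control pool. Pools of each lower dose also reached into or past the 20.1 µM range, with highest sums of 147 at 0.00201 µM, 198 at 0.0201 µM, 161 at 0.201 µM and 166 at 2.01 µM. The highest raloxifene pool of all was 0.0201 µM replicate 5. The sum was chosen with the genes' values known, so no test is given.

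The division of HSP70 genes into those named as inducible and the rest goes by symbol alone, and induction was not tested. Of the rest, HSPA2 had 52.3, 44.7, 79.3, 83.7 and 48.7 normalized counts at 20.1 µM, against 17.0, 31.0, 46.6, 40.4 and 32.8 in controls. HSPA2 was higher in 5 of 5 pairs, the groups overlapped at control replicate 3, and the log2 change was 0.88 (SE 0.23 with the block) with a limma adjusted p of 0.0550 with the block. HSPA8 is the main cytosolic HSP70 of unstressed cells, and its symbol was carried by 2 genes. HSPA8 ENSDARG00000037403 averaged 78.9 ± 11.97 at 20.1 µM and 51.4 ± 12.5 in controls (SD, n = 5 each), higher in 5 of 5 pairs, with a log2 change of 0.63 and a limma adjusted p of 0.113 with the block. HSPA8 ENSDARG00000068992 averaged 13692 ± 2406 at 20.1 µM and 12581 ± 2971 in controls, a log2 change of 0.14. hsc70 had a log2 change of 0.09, HSPA5, the HSP70 of the endoplasmic reticulum, 0.04, and HSPA9, that of mitochondria, 0.08. The changes of hsc70 and HSPA5 took either sign when single pools were left out. With the block and each replicate number left out whole, hsc70 ran between 0.04 and 0.14 and HSPA5 between 0.01 and 0.07.

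Neither gene of the mitochondrial chaperonin pair was called at 20.1 µM. HSPD1 (HSP60) forms the folding chamber and HSPE1 (HSP10) its lid, and the genes lie beside each other in the RefSeq order. HSPD1 had 832, 1044, 939, 1132 and 997 normalized counts at 20.1 µM, against 860.2, 746, 823, 976 and 766 in controls. It was higher at 20.1 µM in 4 of 5 pairs, and replicate 1 was the exception. The log2 change of HSPD1 was 0.24 (SE 0.06 with the block), with a limma adjusted p of 0.0527 with the block, and 0.0134 without replicate number 1. HSPE1 averaged 786 ± 116 at 20.1 µM and 663 ± 67.2 in controls (SD, n = 5 each), higher in 5 of 5 pairs, with a log2 change of 0.24 and a limma adjusted p of 0.0948 with the block.

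None of the HSP90 and HSP110 genes was called at 20.1 µM. hsp90aa1.1, which in zebrafish is needed for myosin folding in muscle, averaged 605 ± 201 at 20.1 µM and 517 ± 241 in controls (SD, n = 5 each), a log2 change of 0.29 with a limma adjusted p of 0.461 with the block. HSP90AA1 had a log2 change of 0.19 and was higher in 5 of 5 pairs, and HSP90B1, the HSP90 of the endoplasmic reticulum, had 0.18. HSP90AB1 averaged 29444 ± 3774 at 20.1 µM and 28913 ± 4401 in controls, a log2 change of 0.03. Among HSP110 genes, HSPA4 ENSDARG00000004754 had a log2 change of 0.24, HSPA4 ENSDARG00000018989 0.10, HSPH1 0.06 and HSPA4L -0.03. The signs of HSP90AB1, HSPA4 ENSDARG00000018989, HSPH1 and HSPA4L each turned when single pools were left out. With the block and each replicate number left out whole, HSPA4 ENSDARG00000018989 ran between 0.01 and 0.14, while the others still took either sign.

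In the larger families of cochaperones and chaperonin subunits, changes at 20.1 µM lay on either side of 0 and none was called. Of 47 tested DNAJ genes, 23 lay above 0 and 24 below, between -0.51 and 0.35 on the log2 scale. dnajb1a and dnajb1b, named after the HSP70 partner induced with it by heat in mammals, had log2 changes of 0.23 and 0.19, and DNAJB9 ENSDARG00000052072 had -0.06. DNAJA2 ENSDARG00000104066, a cytosolic HSP70 partner, had 0.11, DNAJC7 0.08 and DNAJC5 ENSDARG00000004836, a protein of synaptic vesicles, -0.10. The 8 CCT genes lay between -0.12 and 0.11, with cct2 ENSDARG00000087206 at -0.12, CCT4 at -0.04, CCT6B at 0.03 and CCT8 at 0.03. A second gene under the symbol, CCT2 ENSDARG00000104674, is among these 8. It averaged 2080 normalized counts over the 30 raloxifene libraries, against 151 for cct2 ENSDARG00000087206. The 7 BAG genes lay between -0.21 and 0.16, with BAG3, which links HSP70 to small HSPs, at -0.13, bag1 at 0.02, bag6 ENSDARG00000075892 at 0.04 and BAG6 ENSDARG00000077531 at -0.21. hsf1 averaged 88.9 ± 39.4 at 20.1 µM and 105 ± 60.8 in controls (SD, n = 5 each), and HSF2 1087 ± 160 at 20.1 µM and 1097 ± 196 in controls. HSF4, which in mammals is needed in the lens, was below the level minimum in the raloxifene table.

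Below 20.1 µM no member was called at any raloxifene dose, with or without the block, and the HSPB1 and hsp70.3 levels did not form an even series. Across 0.00201, 0.0201, 0.201, 2.01 and 20.1 µM, HSPB1 averaged 119 ± 14.7, 101 ± 19.8, 103 ± 28.9, 96.6 ± 25.1 and 142 ± 13.4 normalized counts (SD, n = 5 each). hsp70.3 averaged 17.1 ± 5.18, 20.9 ± 8.75, 19.0 ± 8.24, 20.2 ± 24.0 and 33.4 ± 9.35 over the same doses, and its highest pool of all was 2.01 µM replicate 4 at 62.6. At 0.00201, 0.0201, 0.201 and 2.01 µM, limma called 0 of 96 members with the block, against 0.0987%, 0%, 0.0156% and 0.0208% of all genes, and 0 without it, against 0% of all genes at each dose. At an unadjusted p under 0.05 with the block the member counts were 17, 6, 12 and 4, or 17.7%, 6.25%, 12.5% and 4.17%. The shares over all genes were 13.9%, 5.26%, 9.69% and 9.86%. Without the block the member counts were 0, 0, 0 and 1, the last being 1.04%. The shares over all genes were then 1.15%, 0.312%, 0.582% and 0.852%. edgeR called 0 members at these doses, with 13, 2, 10 and 3 at such a p with the block and 0 without it, and DESeq2 called 0, with 0, 0, 0 and 1. These edgeR and DESeq2 counts have no share over all genes beside them. At 0.00201 µM the smallest adjusted p was that of hsc70, which averaged 3355 ± 842 at that dose and 2485 ± 831 in controls (SD, n = 5 each), a log2 change of 0.45 with a limma adjusted p of 0.0600 with the block. hsp90aa1.1 followed with a log2 change of 0.51 and an adjusted p of 0.127 in the same fit. Both were picked after their values were seen.

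**Figure D2:**
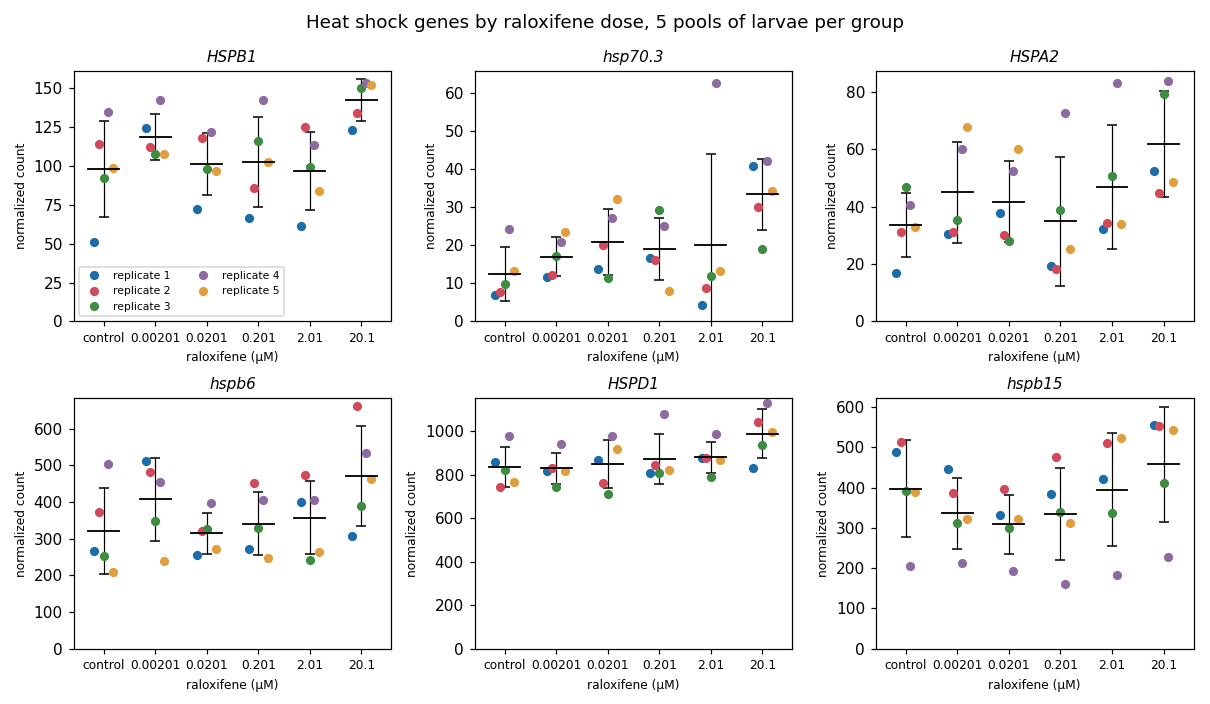
Normalized counts (y axes, linear from 0) of 6 members by raloxifene dose in µM (x axes, control at the left), with 1 coloured point per pool and replicate number, black bars for the mean and whiskers for the SD of 5 pools (cut at 0 for hsp70.3 at 2.01 µM). The 20.1 µM pools of HSPB1 lie between 123 and 153, and replicate 4 of hspb15 is the lowest pool at every dose.

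Against the next lower dose, 20.1 µM gave 1 called member with the block, HSPB1. This is 1.04% of members, near the 0.899% of all genes called in that fit. Without the block 0 members were called, against 0.0416%. In the fit without the block 6 members, or 6.25%, had an unadjusted p under 0.05, 5 higher and 1 lower, against 1.51% of all genes. With the block 14 members did, or 14.6%, against 10.2% of all genes. Of the 14, 11 were higher and 3 lower, and those 3 were DNAJ genes. HSPB1 averaged 142 ± 13.4 at 20.1 µM and 96.6 ± 25.1 at 2.01 µM (SD, n = 5 each), higher in 5 of 5 pairs, with a log2 change of 0.59 (SE 0.14). Its adjusted p was 0.0384 in limma and 0.0465 in edgeR, both with the block, and the limma call held only without replicate number 2 when each number was left out. The test over all 5 doses called 1 member with the block, hspb15. This is 1.04% of members, a smaller share than the 1.83% of all genes called in that fit. Without the block the test called 0, against 0.0780%, and 0 members had an unadjusted p under 0.05, against 1.23%. With the block 13 members had such a p, or 13.5%, against 14.3% of all genes. Without the block edgeR and DESeq2 called 0 members against the next lower dose, with 3 and 4 at an unadjusted p under 0.05, and 0 over all doses, with 0 each. No share over all genes is given for these edgeR and DESeq2 counts.

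hspb15, a small HSP of fish, averaged 397 ± 121 in controls and 336 ± 87.4, 308 ± 73.9, 335 ± 115, 395 ± 141 and 458 ± 142 normalized counts from the lowest to the highest raloxifene dose (SD, n = 5 each). The means at 0.00201, 0.0201 and 0.201 µM lay below the control mean, that at 2.01 µM lay close to it and that at 20.1 µM above it. In the test over all doses its adjusted p was 0.0103 in limma and 0.00860 in edgeR, both with the block. With each replicate number left out, the limma adjusted p ran between 0.0117 and 0.0845, and the call held without numbers 4 and 5. Taken alone, 0.0201 µM against the control gave a log2 change of -0.33, lower in 5 of 5 pairs, and 20.1 µM gave 0.20, higher in 5 of 5 pairs, neither called (limma adjusted p with the block 0.939 and 0.421). The change at 20.1 µM took either sign when single pools were left out without their same-numbered partners. With the block and each replicate number left out whole, it ran between 0.13 and 0.23.

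At 405 µM resorcinol, no member was called with or without the block. Without the block limma called 0 of 97 members, against 0.0306% of all 19583 genes. In that fit 3 members, or 3.09%, had an unadjusted p under 0.05, all higher. Of all genes 1.54% had such a p in either direction, 0.812% higher and 0.730% lower. With the block limma called 0, against 0.327% of all genes in either direction and 0.174% higher. There 13 members, or 13.4%, had an unadjusted p under 0.05, against 10.8% of all genes. Of the 13, 11 were higher, or 11.3% of members, against 5.64% of all genes. The other 2 were lower, or 2.06%, against 5.13%. edgeR called 0 with and without the block, where 14 and 3 reached an unadjusted p under 0.05. The count by DESeq2 was 0, with 3 at such a p. For edgeR and DESeq2 the share of all genes at such a p is not given. The median log2 change was 0.03 over members and 0.00 over all genes, and 60 of 97 members lay above 0, or 61.9% against 50.2% of all genes. Of the 97, 53 changed sign under at least 1 alternative fit, and 16 did so under a fit that left out no pool. The members' median was 0.01 without control replicate 3 or the 405 µM pool of replicate 5, 0.07 without control replicate 5, 0.08 without the 405 µM pool of replicate 1 and 0.05 without that of replicate 3. The median was 0.20 for small HSPs, 0.16 for HSPD1 and HSPE1, 0.08 for HSP70, 0.08 for HSP110, 0.05 for HSP90, 0.03 for DNAJ, -0.01 for CCT and -0.14 for BAG genes. When 1 pool was left out at a time, the HSP90 median ran between -0.07 and 0.15, and was below 0 without control replicate 4 or the 405 µM pool of replicate 5. The HSP110 median ran between -0.01 and 0.18, and was below 0 without control replicate 3. The CCT median ran between -0.05 and 0.04, the HSP70 median between 0.02 and 0.19, the DNAJ median between 0.00 and 0.06 and the BAG median between -0.20 and -0.02. With the block and each replicate number left out whole, the HSP90 median ran between 0.01 and 0.07 and the HSP110 median between 0.003 and 0.14. The CCT median still took either sign there, between -0.03 and 0.002.

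None of the small HSPs named for raloxifene was called at 405 µM resorcinol, and no test compared them with each other. hspb6 had 573, 749, 668, 879 and 667 normalized counts at 405 µM, against 482, 583, 639, 480.4 and 419.8 in controls. It was higher in 5 of 5 pairs, the groups overlapped at control replicates 2 and 3, and the log2 change was 0.44 (SE 0.12 with the block) with a limma adjusted p of 0.162 with the block. hspb9l averaged 522 ± 62.5 at 405 µM and 417 ± 113 in controls (SD, n = 5 each), a log2 change of 0.36 with a limma adjusted p of 0.221 with the block. HSPB1 averaged 114 ± 32.8 at 405 µM and 114 ± 30.7 in controls, a log2 change of -0.02 whose sign turned with the setting. hspb15 had a log2 change of 0.21 and hspb9 of 0.48, with limma adjusted p of 0.583 and 0.712 with the block.

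hsp70.3 had 24.8, 39.8, 19.1, 17.7 and 26.8 normalized counts at 405 µM, against 12.4, 13.7, 20.1, 15.5 and 44.7 in controls. The highest pool of these groups was control replicate 5, below the 4.05 µM pool of replicate 5 at 60.4, and the log2 change of 0.36 had a limma adjusted p of 0.724 with the block. hsp70l had a log2 change of 0.41, HSPA2 0.47, HSPA8 ENSDARG00000037403 0.23, hsc70 0.23 and HSPA9 0.11. hsp70.1 had 0.01, HSPA5 -0.08 and HSPA8 ENSDARG00000068992 -0.10, and these turned sign when single pools were left out. With the block and each replicate number left out whole, HSPA5 ran between -0.13 and -0.04 and HSPA8 ENSDARG00000068992 between -0.20 and -0.05. hsp70.1 ran between -0.19 and 0.18 in those fits. hspa1b had 0.33, between 0.13 and 0.53 when single pools were left out, and -0.02 with the block and without replicate number 2. HSPD1 averaged 974.96 ± 119 at 405 µM and 877 ± 127 in controls (SD, n = 5 each), and HSPE1 616 ± 77.4 at 405 µM and 553 ± 96.5 in controls. Both were higher in 5 of 5 pairs, with log2 changes of 0.16 each and limma adjusted p of 0.431 and 0.368 with the block.

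**Figure D3:**
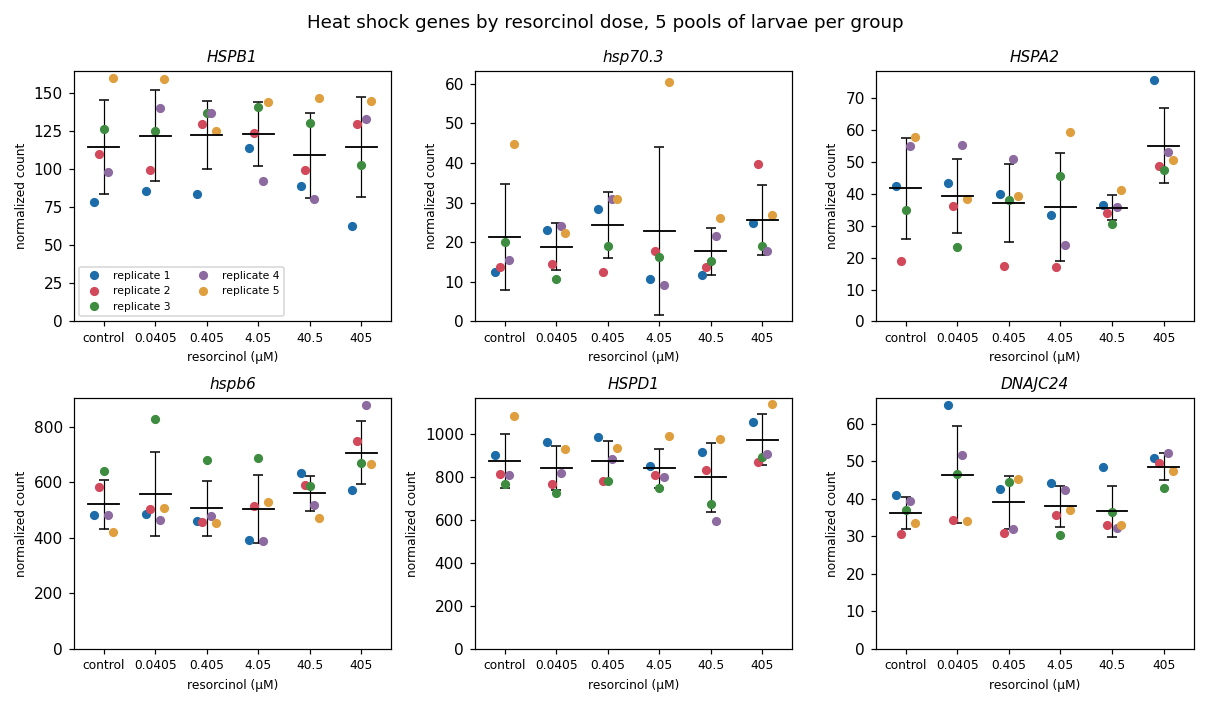
Normalized counts (y axes, linear from 0) of 6 members by resorcinol dose in µM (x axes, control at the left), with 1 coloured point per pool and replicate number, black bars for the mean and whiskers for the SD of 5 pools. HSPB1 averages 114 at 405 µM and 114 in controls, and the 405 µM pools of DNAJC24 all lie above its control pools.

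In 2 members, or 2.06%, the 5 pools at 405 µM all lay above the 5 control pools, against 0.163% of all genes. Both were DNAJ genes. In no member did the 5 pools at 405 µM all lie below, against 0.158%. The 2 genes are named after their values were seen. DNAJC24, which in mammals serves the synthesis of diphthamide on a translation factor, had 50.8, 49.5, 42.8, 52.2 and 47.4 normalized counts at 405 µM, against 41.1, 30.6, 37.0, 39.3 and 33.5 in controls. DNAJC21, a ribosome assembly cofactor in mammals, had 74.0, 82.3, 73.4, 86.7 and 123 at 405 µM, against 54.8, 66.4, 57.2, 68.0 and 68.1 in controls. Replicate 5 was the highest 405 µM pool of DNAJC21 by a wide margin. The log2 changes were 0.41 for DNAJC24 and 0.46 for DNAJC21, and neither was called (limma adjusted p with the block 0.295 and 0.228). At 20.1 µM raloxifene the same genes had log2 changes of 0.08 and 0.20 with overlapping groups.

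The remaining cochaperones were spread around 0 at 405 µM. Of 47 tested DNAJ genes, 29 lay above 0 and 18 below, with dnajb1a at 0.17, dnajb1b at 0.13, DNAJC5 ENSDARG00000004836 at 0.09, DNAJC7 at 0.07, DNAJA2 ENSDARG00000104066 at 0.02 and DNAJB9 ENSDARG00000052072 at -0.46 on the log2 scale. BAG6 ENSDARG00000077531 had -0.32 and was lower in 5 of 5 pairs, with a limma adjusted p of 0.335 with the block. BAG3 had 0.12, bag1 0.07 and bag6 ENSDARG00000075892 -0.04. cct2 ENSDARG00000087206 was the lowest member at -0.59, lower in 5 of 5 pairs with a limma adjusted p of 0.597 with the block, while CCT4 had -0.12, CCT6B -0.01 and CCT8 0.02. The second gene under that symbol, CCT2 ENSDARG00000104674, averaged 1470 normalized counts over the 30 resorcinol libraries, against 147 for cct2 ENSDARG00000087206. The change of this second gene is not given by itself. CCT7, picked after its values were seen, had 0.02. HSP90AA1 had 0.12, hsp90aa1.1 0.06, HSP90B1 0.04 and HSP90AB1 -0.02. HSPA4 ENSDARG00000004754 had 0.18, HSPA4L 0.12, HSPH1 0.03 and HSPA4 ENSDARG00000018989 -0.09. HSF4 averaged 9.15 ± 6.24 at 405 µM and 10.2 ± 13.6 in controls (SD, n = 5 each), where the mean was lower at 405 µM but the log2 change was 0.46. HSF2 had a log2 change of 0.10 and hsf1 of -0.10.

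At 0.0405, 0.405, 4.05 and 40.5 µM resorcinol, limma called 0 members with the block, against 0%, 0%, 0% and 0.0664% of all genes, and 0 without it, against 0%, 0%, 0% and 0.00511%. At an unadjusted p under 0.05 with the block the member counts were 7, 5, 5 and 3, or 7.22%, 5.15%, 5.15% and 3.09%. The shares over all genes were 8.60%, 2.95%, 3.89% and 5.75%. Without the block the member counts were 0 at each dose, against 0.904%, 0.311%, 0.465% and 0.802%. At 405 against 40.5 µM limma called 0 members with the block, against 0.0102% of all genes, and 0 without it, against 0%. There, 19 members, or 19.6%, had an unadjusted p under 0.05 with the block, against 9.98% of all genes. Of the 19, 17 were higher, or 17.5% of members, against 5.56% of all genes. Without the block 4 members, or 4.12%, had such a p, against 1.07%. The smallest of these adjusted p-values was that of HSPD1, which averaged 974.96 ± 119 at 405 µM and 801 ± 161 at 40.5 µM (SD, n = 5 each), a log2 change of 0.30 with a limma adjusted p of 0.222 with the block. The test over all doses called 0 members with the block, against 0.225%. In that fit 12 members, or 12.4%, had an unadjusted p under 0.05, against 7% of all genes. Without the block the test called 0, against 0.0409%, with 0 at such a p, against 0.541%. edgeR called 0 members in each of these comparisons, with 7 without the block and 20 with it at an unadjusted p under 0.05 for 405 against 40.5 µM, and DESeq2 called 0, with 6. Counts at such a p from these 2 methods have no share over all genes beside them. Leaving out either of the 2 pools that stood apart, or the deeper 405 µM pool, 1 pool per fit, also left 0 members called in every resorcinol comparison with the block.

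Set side by side, the compounds have separate controls. Of the 96 members tested in both tables, 44 had a log2 change above 0 at both highest doses, or 45.8%, against 27.7% of the 19058 genes tested in both, and 21 lay below 0 at both, or 21.9%, against 30.1%. This is a description of the members and carries no test, and the sign changes given above for each compound bear on these counts. HSPB1 had 0.60 at 20.1 µM raloxifene and -0.02 at 405 µM resorcinol, hsp70.3 had 1.43 and 0.36, and hspb6 had 0.57 and 0.44. The difference between compounds was not tested.

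Expression of these genes varied with the replicate number in the labels. This number accounted for a median of 69.9% of a tested member's variance on the log2 scale in the raloxifene table and 63.8% in the resorcinol table, while the dose group accounted for 7.39% and 7.80%. Over all tested genes the replicate number accounted for a median of 72.7% and 66.4%, and the dose group for 5.75% and 6.18%. The following members were picked after their values were seen. DNAJC6, the auxilin that helps uncoat clathrin vesicles, averaged 10.3, 10.5, 82.0, 120.3 and 87.9 normalized counts over the 6 raloxifene-table pools of replicates 1 to 5. DNAJC5 ENSDARG00000042948 averaged 16.5, 20.3, 166, 184 and 163, and hsf1 43.8, 49.4, 129, 152 and 124 over the same pools. Replicates 1 and 2 were the low ones in all 3 genes. In the resorcinol table only replicate 1 was low, with hsf1 averaging 99.2, 172, 189, 195 and 180.2, and DNAJC6 33.7, 119, 141, 134 and 130.1. DNAJC19, which serves mitochondrial protein import in yeast and mammals, ran the other way, with 292, 312, 136, 138 and 152 in the raloxifene table and 236, 154, 109.98, 162 and 141 in the resorcinol table. The labels do not say what a replicate number stands for.

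**Figure D4:**
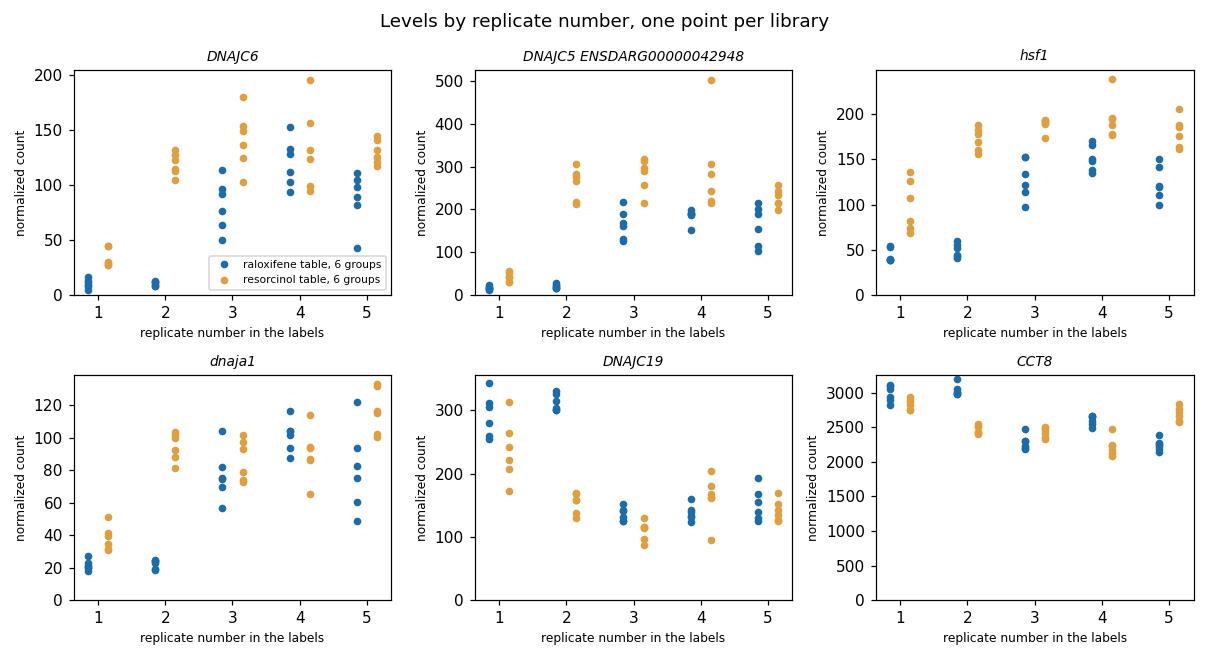
Normalized counts (y axes, linear from 0) of 6 members by replicate number (x axes), 1 point per library, with the 6 groups of the raloxifene table in blue and of the resorcinol table in orange, which were normalized separately. DNAJC6, DNAJC5 ENSDARG00000042948, hsf1 and dnaja1 are low in replicates 1 and 2 of the raloxifene table and in replicate 1 of the resorcinol table, and the mean levels of DNAJC19 and CCT8 are highest there.

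Of 59 other chaperones and cochaperones (such as prefoldin and CLP subunits), 57 were tested in each table. None was called at either highest dose with or without the block by limma. At an unadjusted p under 0.05 with the block there were 7 of 57 at 20.1 µM raloxifene, against 12.3% of all genes. At 405 µM resorcinol there were 6 of 57, against 10.8%. The median log2 changes of these 57 genes were 0.03 and 0.06, against -0.01 and 0.00 over all genes. Marker lists of larval tissues were measured beside these results. Over all genes, 47.5% lay above 0 at 20.1 µM and 50.2% at 405 µM. The 11 exocrine pancreas markers all had log2 changes above 0 at both highest doses, with medians of 0.71 and 0.95. At 0.00201, 0.0201, 0.201 and 2.01 µM raloxifene 11, 10, 9 and 0 of these markers lay above 0. The medians there were 0.42, 0.16, 0.03 and -0.19. At 0.0405, 0.405, 4.05 and 40.5 µM resorcinol 1, 9, 11 and 4 of these markers lay above 0, with medians of -0.12, 0.08, 0.12 and -0.10. An unadjusted p under 0.05 with the block was reached by 9 of them at 20.1 µM and 11 at 405 µM, against 12.3% and 10.8% of all genes. At 405 µM 1 was called higher with the block, against 0.174% of all genes. Their summed level was 2760 to 43771 at 20.1 µM and 1908 to 20439 in raloxifene controls, and 8879 to 35462 at 405 µM and 4361 to 28052 in resorcinol controls. Of 15 tested lens markers, all lay above 0 at 405 µM with a median of 1.04, and their summed level was 71681 to 148972 at 405 µM and 9456 to 143809 in controls. At 20.1 µM, 8 of the 15 lens markers lay above 0, with a median of 0.06. From 0.00201 to 2.01 µM raloxifene 15, 15, 14 and 15 lay above 0, with medians of 0.53, 0.24, 0.39 and 0.39. From 0.0405 to 40.5 µM resorcinol 14, 12, 12 and 9 lay above 0, with medians of 0.34, 0.22, 0.04 and 0.03. Of 9 markers of proliferating cells, 0 lay above 0 at 20.1 µM with a median of -0.22, and their summed level was 1693 to 2826 at 20.1 µM and 1976 to 3529 in controls. From 0.00201 to 2.01 µM raloxifene 4, 5, 6 and 0 of the 9 lay above 0, with medians of -0.01, 0.04, 0.07 and -0.18. At 405 µM, 7 of the 9 lay above 0 with a median of 0.13, and the sum was 2289 to 3361 at 405 µM and 2021 to 3056 in controls. Of 8 neuron markers, 1 lay above 0 at 20.1 µM and 2 at 405 µM, with medians of -0.07 and -0.06. From 0.00201 to 2.01 µM raloxifene 1, 3, 0 and 0 of these 8 markers lay above 0. From 0.0405 to 40.5 µM resorcinol 2, 5, 2 and 4 of these 8 markers did. Their summed level was 22939 to 37231 at 20.1 µM and 24906 to 40852 in raloxifene controls, and 25115 to 39231 at 405 µM and 22890 to 44808 in resorcinol controls. The 16 fast muscle markers had medians of 0.06 at 20.1 µM and 0.07 at 405 µM, and the 13 liver markers -0.03 and 0.10. At 20.1 µM, an unadjusted p under 0.05 with the block was reached by 0 lens, 2 proliferation, 1 neuron, 0 muscle and 1 liver marker. At 405 µM the counts were 11, 0, 1, 0 and 3, and none of these was called. None of the markers in these lists was at 0 in every library. Their part in the results was not tested.

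The 12 members not tested in the raloxifene table were DNAJB13, DNAJB5, DNAJB9 ENSDARG00000016886, DNAJC25, DNAJC28, HSF2BP, HSF4, hsf5, hspa12a.1, hspa12a.2, HSPB3 and HSPB8. Their highest pool held 17.2 normalized counts, in DNAJB13. In the resorcinol table HSF4 passed the level minimum, the other 9 of these measured there did not, and hspa12a.1 and hspa12a.2 were not analysed here.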

How the data were processed

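The 60 larval pools were measured by RNA-seq. For each compound the authors deposited a table of gene-level read counts scaled by library, which is a non-negative signal. The submitters' processing notes name cutadapt, STAR and DESeq2 with GRCz11. Neither versions nor the counting tool and its strand setting are stated. Undoing the scaling gave whole reads for 100% of values at a tolerance of 0.1 read. Each table was normalized by itself, so tests stay within a compound.

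Members and lists were chosen with earlier results of these data known. Groups were compared with limma 3.58.1 (R 4.3.3), with a trend, on log2(normalized count + 1), as the design states. This scale understates changes of low genes. One model per compound held its 30 libraries, and p-values were adjusted over every gene with 10 normalized counts in 5 libraries. The replicate number as a block was an alternative. Its pairing comes from the data: 75 of 75 same-numbered library pairs correlated over 0.1 in each compound, and r was at least 0.344 in the raloxifene table and 0.194 in the resorcinol table. Recovered reads were also tested with edgeR 4.0.16 (quasi-likelihood), which called 16 genes at 20.1 µM and 5 at 405 µM without the block, and with DESeq2 1.42.0, which called 28 and 16. The fits were also run on simulated data that held the replicate number as an added term with normal noise. Such data cannot show whether the block suits the real pools, and the outcome is not given.

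Named genes were those called in any comparison, the 5 tested members with the largest change at each highest dose, the 3 highest members per family in raloxifene controls, and a list of well-known heat shock genes. Others are said to be picked after their values were seen. No sequences are shown, since no sequence table or genome was used here.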

Additional observations from a re-analysis of the deposited data

Results flagged for a closer look

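In 16 of 180 gene and group combinations of 5 pools (the named members at the highest dose and in the control of each compound), 1 pool lay far from the other 4, its gap to the nearest being over 0.71 of the range. Chance gives such a gap in about 1 of 20 groups if the 5 values are drawn from 1 normal distribution. Normalized counts need not follow such a distribution. Pools of different replicate numbers could also not be exchanged, since the number accounted for most of the variance. In 10 of the 16, covering 8 genes, the pools of that replicate number lay apart from all pools of the other numbers over all 6 groups of the table. For example, the replicate 4 pools of the raloxifene table held 1145 to 1254 for DNAJC5 ENSDARG00000004836, against 1828 to 2267 in the other numbers, and 36017 to 39767 for HSP90AB1, against 25214 to 31003. The other genes with such numbers were cct2 ENSDARG00000087206, HSPA8 ENSDARG00000068992, CCT7, hsf1, hsp90aa1.1 and HSPH1. Each value below is the pool's normalized count, followed by the range of the other 4 pools. In 20.1 µM raloxifene replicate 4 the count stood apart for cct2 ENSDARG00000087206 at 316 against 81.9 to 133, for DNAJC5 ENSDARG00000004836 at 1188 against 1935 to 2132, for HSP90AB1 at 36017 against 26594 to 28775, for HSP90B1 at 735 against 465 to 509, for HSPA8 ENSDARG00000068992 at 17849 against 11589 to 13199. In raloxifene control replicate 4 the count stood apart for DNAJC5 ENSDARG00000004836 at 1254 against 2095 to 2267. In 405 µM resorcinol replicate 5 the count stood apart for CCT7 at 2921 against 2324 to 2495, for dnajb1a at 135 against 86.4 to 99.98, for DNAJC21 at 123 against 73.4 to 86.7, for hsp90aa1.1 at 1032 against 487 to 623. In 405 µM resorcinol replicate 1 the count stood apart for hsf1 at 74.0 against 182 to 192, for HSPA2 at 75.6 against 47.4 to 53.0. In resorcinol control replicate 5 the count stood apart for CCT7 at 2983 against 2225 to 2413, for HSF4 at 33.5 against 1.19 to 10.5, for hsp70.3 at 44.7 against 12.4 to 20.1. In resorcinol control replicate 1 the count stood apart for HSPH1 at 143 against 73.0 to 91.8.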

How the results depend on the processing

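Without the block no member was called in any of the 14 comparisons under any alternative (another pseudocount, no or a stricter level minimum, edgeR, DESeq2, quantile normalization, only the groups compared, or a library left out). All these fits kept the replicate differences in the spread, a median of 69.9% and 63.8% of member variance in the 2 tables. Limma without the block put 2.32% of all genes at 20.1 µM and 1.54% at 405 µM under an unadjusted p of 0.05. The agreement of these fits is therefore no separate support for an absence of change. With the replicate block 2 members were called at 20.1 µM raloxifene, 1 at 20.1 against 2.01 µM and 1 in the raloxifene test over all doses. These are 2.08%, 1.04% and 1.04% of members, against 1.26%, 0.899% and 1.83% of all genes. edgeR with the block called 0, 1 and 1. With single libraries or replicate numbers left out, these counts ran between 0 and 4, 0 and 2, and 0 and 2. Shares of all genes called in these fits and in edgeR with the block are not given, so their member counts have no background. Without number 1 the members called at 20.1 µM were DNAJC6 (lower, picked after its values were seen), hspb6, hspb9l and HSPD1, and without number 5 HSPA8 ENSDARG00000037403. The cause was not tested. No resorcinol comparison changed, including the 3 fits, each without 1 pool, that were added after seeing the data.

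Of 95 changes of single genes checked, 43 changed sign under at least 1 alternative, none of them called. A single library left out without the block also unbalances the replicate numbers between the groups. Leaving out single libraries or replicate numbers moved these log2 changes at 20.1 µM over the following ranges: bag1 -0.064 to 0.13, BAG3 -0.22 to 0.0097, bag6 ENSDARG00000075892 -0.035 to 0.10, BAG6 ENSDARG00000077531 -0.51 to 0.067, cct2 ENSDARG00000087206 -0.45 to 0.097, CCT4 -0.11 to 0.052, CCT6B -0.033 to 0.093, CCT8 -0.026 to 0.095, dnajb1b -0.062 to 0.50, DNAJB9 ENSDARG00000052072 -0.59 to 0.33, DNAJC5 ENSDARG00000004836 -0.26 to 0.052, hsc70 -0.052 to 0.22, hsf1 -0.40 to 0.12, HSF2 -0.090 to 0.088, HSP90AB1 -0.045 to 0.11, HSPA4 ENSDARG00000018989 -0.076 to 0.29, HSPA4L -0.11 to 0.062, HSPA5 -0.043 to 0.12, hspb15 -0.022 to 0.43, HSPH1 -0.20 to 0.32 and DNAJC24 -0.044 to 0.21. At 405 µM the ranges were bag1 -0.028 to 0.15, bag6 ENSDARG00000075892 -0.080 to 0.0045, CCT4 -0.22 to 0.0026, CCT6B -0.043 to 0.028, CCT8 -0.030 to 0.057, DNAJA2 ENSDARG00000104066 -0.015 to 0.044, dnajb1b -0.038 to 0.33, DNAJB9 ENSDARG00000052072 -0.78 to 0.082, DNAJC5 ENSDARG00000004836 -0.029 to 0.23, hsf1 -0.17 to 0.17, hsp70.1 -0.22 to 0.18, hsp90aa1.1 -0.11 to 0.18, HSP90AB1 -0.13 to 0.072, HSP90B1 -0.060 to 0.14, hspa1b -0.016 to 0.55, HSPA4 ENSDARG00000018989 -0.23 to 0.078, HSPA5 -0.18 to 0.062, HSPA8 ENSDARG00000068992 -0.25 to 0.022, HSPB1 -0.14 to 0.18, HSPH1 -0.28 to 0.18 and CCT7 -0.034 to 0.094. Quantile normalization turned CCT8 to -0.031, DNAJA2 ENSDARG00000104066 to -0.0080 and CCT7 to -0.033 at 405 µM. For HSF4, edgeR gave -0.23 and DESeq2 -0.17. hsp70.1 was -0.0031 with a pseudocount of 10, -0.0095 in edgeR and -0.0067 in DESeq2, and HSPB1 was 0.0035 in edgeR. Low counts limit hsp70.1, hsp70.3, hspa1b, HSF4, hspb9 and DNAJB9 ENSDARG00000052072. Over all raloxifene and all resorcinol libraries, hspb9 averaged 20.0 and 13.0 normalized counts and DNAJB9 ENSDARG00000052072 11.2 and 20.5.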
